A study of Mus musculus with 36 samples.

Results

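Z-disc and thin filament end genes were followed across a mouse heart RNA sequencing series. The Z-disc anchors the barbed ends of the actin thin filaments at the border of each sarcomere. Leiomodin works at the opposite, pointed end of the thin filament, and desmin filaments tie neighbouring Z-discs to each other and to the membrane. In heart muscle these proteins carry force, sense stretch and are known as sites of inherited cardiomyopathy.

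The members were 10 genes listed by symbol: Tcap, Csrp3, Actn2, Ldb3, Myoz2, Nebl, Lmod2, Xirp1, Xirp2 and Des. A gene entered when the deposited expression table had a row under that symbol. This held for 8 of the 10 genes, each with 1 row, out of 36128 gene models under 32750 symbols. Actn2 and Ldb3 were not analysed here. All 8 members passed the filter on low values in every fit, and none of their values was 0.

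The series holds 36 libraries in 16 groups of CD-1 mice, and its labels name no genetic change in any group. Whole ventricle was taken from unoperated mice at postnatal day 0 (P0), P4, P7 and in adults, and from operated mice 1 and 7 days after resection or a sham procedure, in 8 groups of n = 2. Isolated cardiomyocytes, enriched on Miltenyi columns, came from P0 and P4 hearts and from operated hearts (resection or sham) at day 7, in 4 groups of n = 3. Dissociated adult cardiomyocytes, called explants here, were sampled at 0, 24, 48 and 72 h of culture, in 4 groups of n = 2. The labels used here give no age at surgery and no agent added to the cultures, and do not say whether replicates came from separate animals or from pools, so p-values measure the spread between these samples, which may be technical.

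The values are FPKM, fragments scaled to library size and to transcript length, and the scaling to length allows levels of different genes to be set side by side. Depth per library is unknown, and between 10454 and 13134 gene models had at least 1 FPKM in a library. The summed FPKM of 7 cardiomyocyte markers was 3845 to 28212 in all libraries, so the labelled cell type was present throughout. The sums were not higher in isolated cells than in ventricle. In day 7 sham they were 7707 to 9693 FPKM in isolated cells against 23869 to 26524 in ventricle. At P0 they were 15902 to 18638 against 19494 to 21783 FPKM, and at P4 the preparations overlapped. Summed globin and heme markers in day 7 sham were 2215 to 3010 FPKM in isolated cells and 733 to 916 in ventricle. Some libraries held markers of other cells or tissues. The 3 isolated resection libraries had summed lung epithelium markers of 178 to 1160 FPKM against 0.435 to 2.70 in sham, and summed globin and heme markers reached 43806 in resection replicate 3. Ventricle libraries 7 days after resection had lung sums of 95.9 to 215 against 2.57 to 25.9 in sham.

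Promoter sequence was available for most members and is shown here for the pair of windows that held the same muscle motif. Windows of 250 bases upstream of annotated starts came from RefSeq on build GRCm38.p6. There were 10 windows for 6 of the 8 members; Tcap and Xirp1 had no entry. In the following pair each window is printed 5′ to 3′ on the gene's strand, and capitals mark a match to the MEF2 motif, the A/T-rich site bound by MEF2 factors in muscle genes.
Xirp2, chr2:67445752-67446001, plus strand: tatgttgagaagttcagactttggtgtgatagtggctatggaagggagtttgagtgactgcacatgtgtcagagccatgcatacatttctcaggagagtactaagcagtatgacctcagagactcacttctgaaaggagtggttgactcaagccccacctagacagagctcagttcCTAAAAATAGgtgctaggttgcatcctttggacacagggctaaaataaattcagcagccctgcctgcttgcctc
Myoz2, chr3:123034988-123035237, minus strand: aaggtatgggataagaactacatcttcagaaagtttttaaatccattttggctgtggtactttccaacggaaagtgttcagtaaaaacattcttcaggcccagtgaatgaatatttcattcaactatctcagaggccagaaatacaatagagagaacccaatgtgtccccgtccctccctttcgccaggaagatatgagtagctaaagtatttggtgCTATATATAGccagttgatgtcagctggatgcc
The Xirp2 match covered bases -74 to -65 from the start and the Myoz2 match bases -33 to -24. Both strands were searched for MEF2, the CArG box, the MCAT element CATTCC and the GATA site AGATAA, and the TATA box TATAAA was searched on the gene's strand alone. Among 27025 genes, each taken with its first listed window, 3.01% held a MEF2 match, 1.4% a CArG box, 12.6% CATTCC, 8.12% TATAAA and 10.3% AGATAA. Of the 4 Nebl windows, 1 held a CArG box, 1 held both CATTCC and AGATAA, and 1 held AGATAA alone. No match overlapped another, and the windows of Lmod2, Des and Csrp3 held none of the 5 motifs. A match is a description of the letters and was not tested as a binding site.

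Levels differed widely between members. In P0 ventricle the highest was Csrp3, muscle LIM protein, a Z-disc scaffold of the stretch response, at 511 ± 105 FPKM (SD, n = 2). Des, the muscle intermediate filament, followed at 341 ± 54.4 FPKM and Myoz2, which tethers calcineurin at the Z-disc, at 230 ± 7.19 FPKM. The Csrp3 libraries, at 586 and 437 FPKM, lay above the Des libraries, at 380 and 303 FPKM, and these above those of Myoz2. Nebl, the nebulin-related Z-disc protein of heart, at 131 ± 58.1 FPKM and Tcap, the telethonin cap of titin, at 110 ± 25.4 FPKM overlapped. Lmod2, the cardiac leiomodin, stood at 54.4 ± 8.51 FPKM and overlapped Xirp1, at 50.0 ± 8.15 FPKM. Xirp2 was the lowest, at 3.44 ± 2.04 FPKM. Xirp1 and Xirp2 are the Xin actin-binding repeat proteins, which in heart sit largely at the intercalated disc, where thin filaments end on the membrane.

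**Figure D1:**
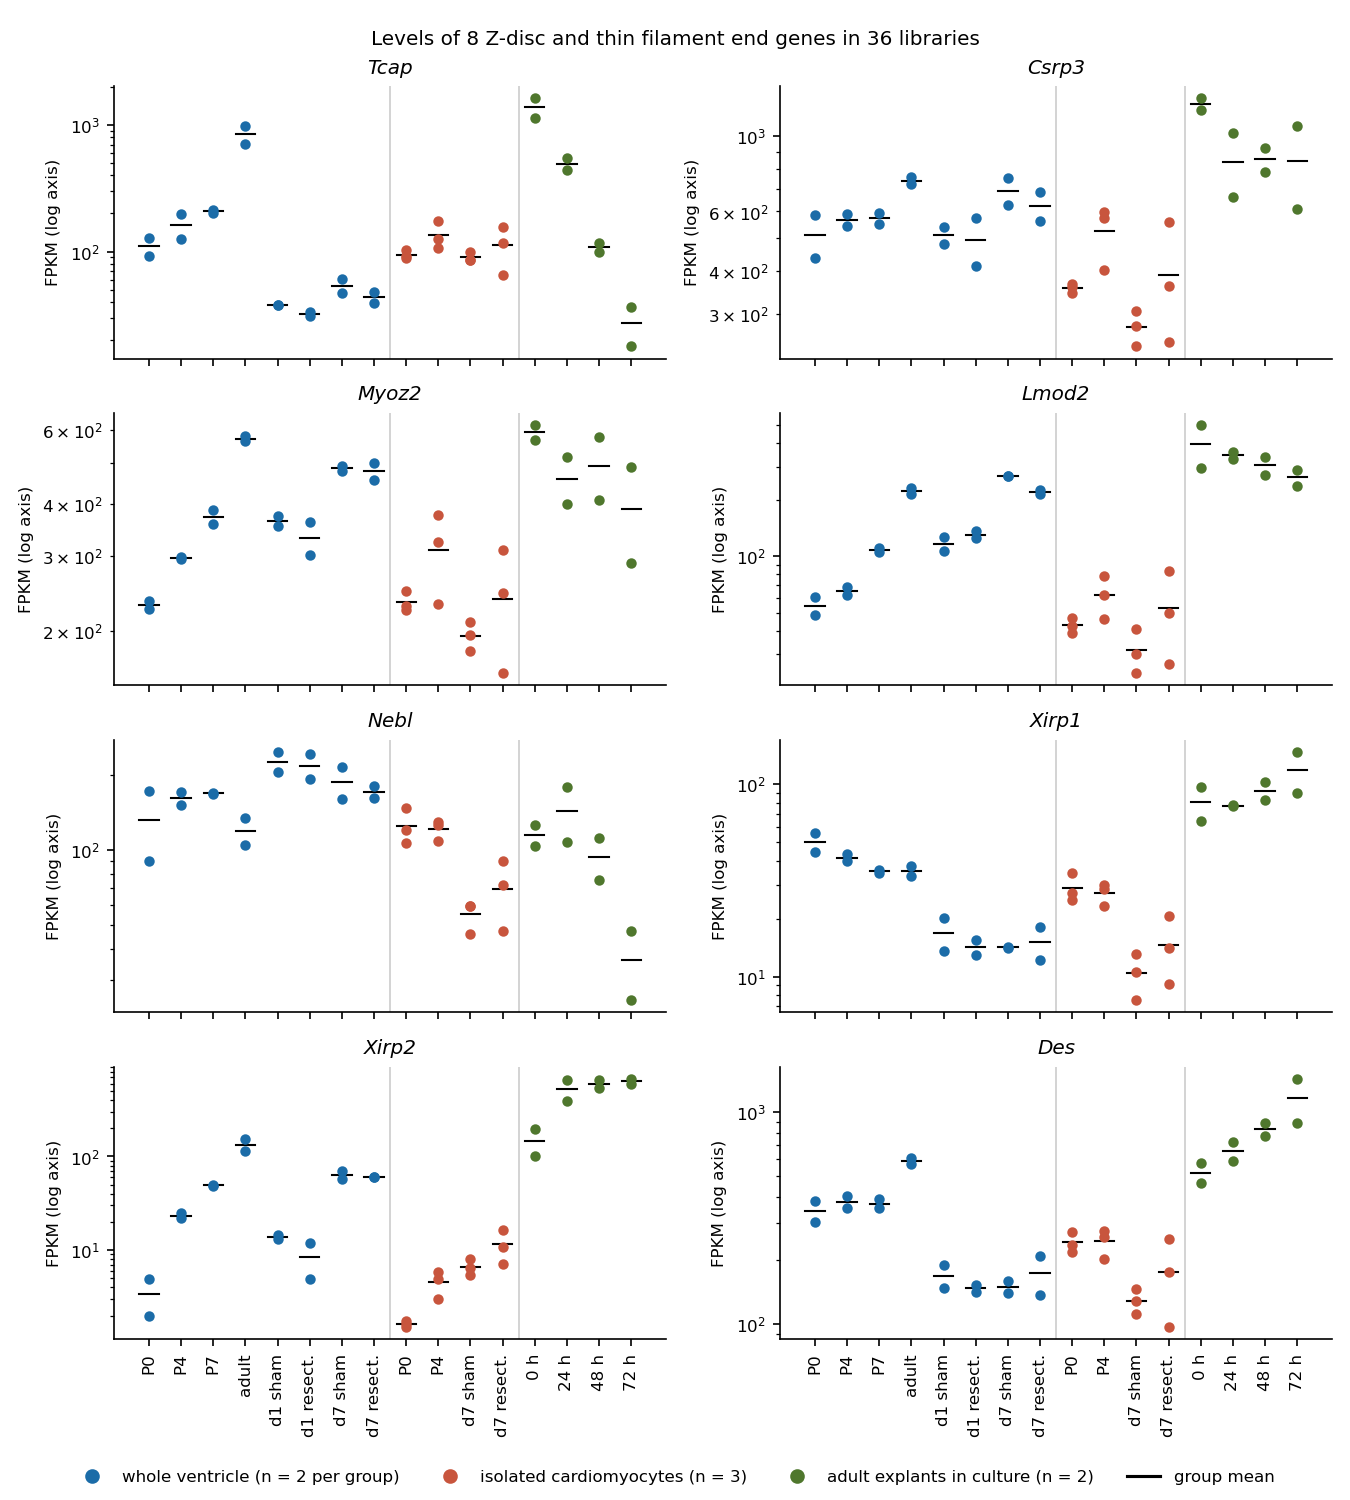
FPKM of each member on a log axis, one panel per gene, with one point per library, a bar at each group mean, and colours for whole ventricle, isolated cardiomyocytes and explants. Xirp2 climbs from 3.44 FPKM at P0 to 133 in adult ventricle and to 637 after 72 h in culture, while Tcap reaches 1377 in explants at 0 h and 27.2 at 72 h.

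The first question was how these genes changed as the ventricle matured. By adulthood 6 of the 8 members had risen from P0 and none was called lower, with limma's moderated test at a Benjamini-Hochberg adjusted p under 0.05, where 13.4% of 14306 gene models were called higher and 43.6% lower. The median log2 change, on the log2(FPKM + 1) scale used throughout, was 1.05 for the members and -0.36 for all gene models tested. At P7 against P0, 4 members had risen and 0 were called lower, where 4.35% of gene models were called higher and 8.21% lower. Of the members, 5 of 8 had an unadjusted p under 0.05, as had 28.6% of gene models. At P4 only Xirp2 had risen, where 0.580% of gene models were called higher and 0.769% lower. Median-of-ratios scaling moved the share of higher calls among all called gene models from 34.6% to 57.4% at P7 and from 23.4% to 48.4% in adults, and the members called higher were the same at both ages. The 3 ages share the P0 libraries, so their changes are not independent of each other.

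Xirp2 had the largest change of the 8 members at each age. Its level was 1.995 and 4.88 FPKM in the P0 libraries, 21.96 and 24.7 at P4, 49.0 and 50.1 at P7, and 154 and 113 in adults. No library of one age overlapped that of another. The log2 change against P0 was 2.53 (SE 0.33, adjusted p = 0.00234) at P4, 3.59 (adjusted p = 3.46e-05) at P7 and 4.99 (adjusted p = 1.59e-07) in adults, from limma. In adults the mean was 38.8 times that at P0.

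Tcap, which joins the titin ends of neighbouring sarcomeres, was the fifth of the members by mean level at P0 and the first in adults, where its libraries overlapped those of Csrp3. Its libraries held 128 and 92.1 FPKM at P0, 198 and 125 at P4, 203 and 213 at P7, and 984 and 704 in adults. P4 overlapped P0, and the adult libraries lay above all the others. The log2 change was 0.93 (SE 0.23, adjusted p = 0.021) at P7 and 2.93 (adjusted p = 6.82e-07) in adults, from limma. The P7 call was lost without P0 replicate 2 (log2 change 0.70, adjusted p = 0.127), without P7 replicate 1 (adjusted p = 0.101) and without P7 replicate 2 (adjusted p = 0.106). Dropping the filter on low values (adjusted p = 0.0565) or fitting all libraries in 1 model (adjusted p = 0.137) also ended it, and the latter ended the P7 calls of Lmod2 (adjusted p = 0.115) and Myoz2 (adjusted p = 0.167).

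Lmod2, which elongates thin filaments at their pointed ends, stood at 60.4 and 48.4 FPKM at P0, 68.5 and 61.9 at P4, 110 and 105 at P7, and 231 and 214 in adults. The ages did not overlap. The change reached 0.98 (SE 0.13, adjusted p = 0.000597) at P7 and 2.02 (adjusted p = 1.68e-07) in adults, from limma, where the mean was 4.09 times that at P0.

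Myoz2 had the smallest standard error of the members in ventricle. Its libraries held 224 and 235 FPKM at P0, 300 and 295 at P4, 386 and 359 at P7, and 579 and 564 in adults, with no overlap between ages. The log2 change was 0.70 (SE 0.12, adjusted p = 0.00289) at P7 and 1.31 (adjusted p = 2.3e-06) in adults, from limma.

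Des and Csrp3 were called higher in adults and at neither earlier age. Des was at 380 and 303 FPKM at P0, 390 and 353 at P7 and 568 and 612 in adults, a log2 change of 0.80 (SE 0.20, adjusted p = 0.00404). Csrp3 was at 586 and 437 FPKM at P0, 551 and 593 at P7 and 756 and 724 in adults, a change of 0.55 (SE 0.19, adjusted p = 0.0248). The adult Csrp3 call was lost without P0 replicate 2 (0.34, adjusted p = 0.203), without adult replicate 1 (0.52, adjusted p = 0.102), without adult replicate 2 (0.58, adjusted p = 0.0708) and under quantile normalization (0.13, adjusted p = 0.444). Dropping the filter on low values (adjusted p = 0.0615) or fitting all libraries in 1 model (adjusted p = 0.143) also ended it.

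Xirp1 and Nebl were not called at any age in the fit used here, which leaves out the replicate numbers. With the replicate numbers as a block, Xirp1 was called lower in adults. Xirp1 held 55.8 and 44.2 FPKM at P0 and 33.3 and 37.3 in adults. Its adult libraries lay below those of P0, with a log2 change of -0.48 (95% interval -0.92 to -0.05, adjusted p = 0.0543), which was called without P0 replicate 2. Under median-of-ratios scaling the Xirp1 change was -0.09. Nebl overlapped between P0 and adults, with a change of -0.08 (95% interval -0.63 to 0.48) that was 0.33 under median-of-ratios scaling. At P7 its change was 0.43 (adjusted p = 0.285 in limma), and without P0 replicate 2 Nebl was called higher there.

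**Figure D2:**
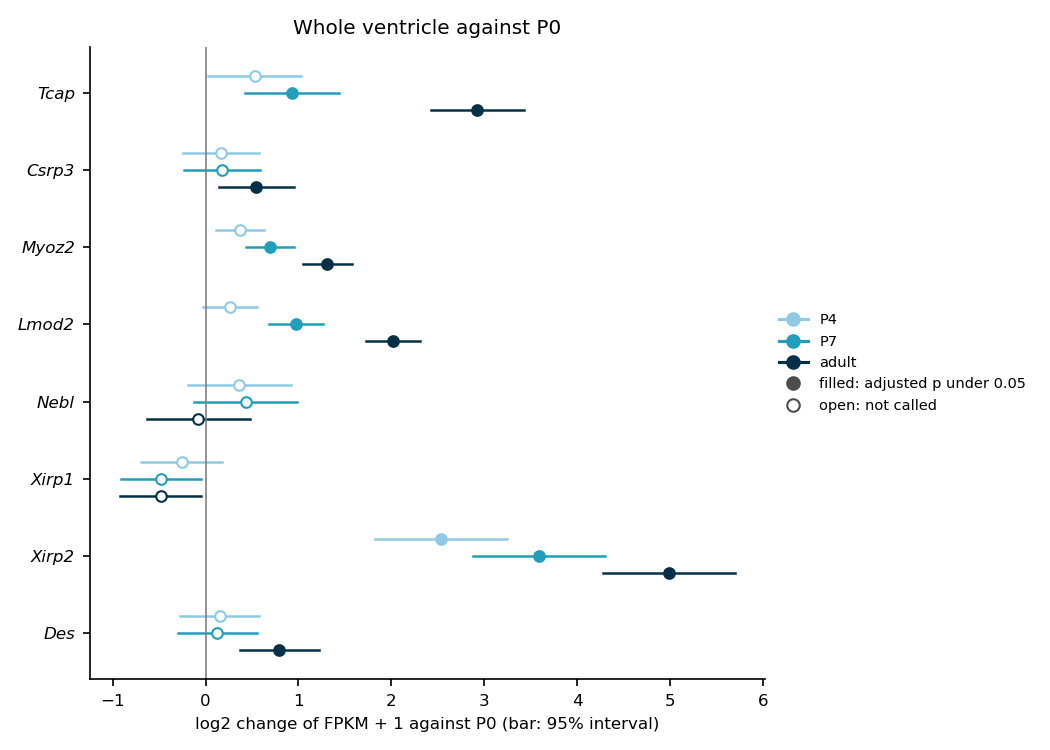
Change of each member from P0 in whole ventricle, on the log2(FPKM + 1) axis, for P4, P7 and adults; bars are 95% intervals from limma and filled points passed an adjusted p of 0.05. Xirp2 lies farthest right at every age, from 2.53 at P4 to 4.99 in adults, and Xirp1 lies left of 0.

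The markers of other cells also moved with age. Among all gene models, 13.4% were called higher and 43.6% lower in adults, and 4.35% and 8.21% at P7. All 6 macrophage markers were called higher in adults (summed level 23.4 to 30.7 FPKM at P0 and 121 to 160 in adults). Fibroblast markers were called lower in 5 of 7 and higher in 1 of 7 (936 to 1189 and 382 to 399 FPKM). Cardiomyocyte markers were called higher in 3 of 7 (19494 to 21783 and 24105 to 24485 FPKM), although under quantile normalization 1 was called higher and 2 lower. In adults 2 of 5 endothelial, 2 of 4 tested skeletal muscle and 1 of 5 smooth muscle markers were called lower. Erythroid markers were called higher in 3 of 4 at P7 and in adults, with sums of 733 to 859 FPKM at P0, 1680 to 2042 at P7 and 2164 to 2623 in adults. Atrial markers were called lower in 3 of 4 at both ages, with sums of 355 to 1259 FPKM at P0, 82.7 to 167 at P7 and 332 to 446 in adults. At P7, 3 of 7 fibroblast markers and 1 of 6 macrophage markers were called higher and 1 of 5 smooth muscle markers lower. The part of these cell types in the members' changes was not tested. In bulk samples such as these, fewer cells of a type and less RNA per cell cannot be told apart.

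Genes of the same structures were taken from 4 further lists. Of 21 tested Z-disc genes outside the members, 8 rose and 4 fell from P0 to adult ventricle, against the 13.4% of gene models called higher and 43.6% called lower there. Myot, the actin-bundling myotilin, rose by 3.57 on the log2 scale (adjusted p = 9.53e-09), from 0.554 ± 0.0383 to 17.5 ± 2.49 FPKM (SD, n = 2). Cmya5, myospryn, which binds desmin and other Z-disc partners, rose by 2.51 (adjusted p = 4.77e-07). Myoz1, a relative of Myoz2 known best from fast skeletal muscle, fell by 2.39 (adjusted p = 1.77e-07), from 4.87 ± 1.26 to 0.104 ± 0.0152 FPKM. Synpo2l fell by 1.97 (adjusted p = 3.31e-07). These p-values are from limma.

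Among 10 tested thin filament genes and paralogs of the members, 3 rose and 4 fell, beside the same shares of all gene models. The Csrp3 paralogs Csrp1 (-2.14, adjusted p = 6.4e-06) and Csrp2 (-1.92, adjusted p = 3.09e-05) fell, as did Actn1 (-1.39, adjusted p = 8.37e-06), an alpha-actinin found outside sarcomeres, all from limma. Tmod4, a pointed-end cap protein, rose by 1.59 (adjusted p = 0.00014). Of 7 desmin network and costamere genes 1 rose and 2 fell, and Vcl, vinculin, which links actin to the membrane, was among the latter (-0.77, adjusted p = 0.00034). Of 5 M-band genes, 1 rose and 1 fell. Under median-of-ratios scaling the Z-disc split was 12 higher and 4 lower, and that of the desmin network and costamere 4 higher and 2 lower.

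Isolated cardiomyocytes were compared at P4 and P0 for the early part of the same course. No member was called by limma, where 0.00761% of 13143 gene models were called in either direction, and 1 member, Xirp2, had an unadjusted p under 0.05, as had 2.64% of gene models. Xirp2 was at 1.77, 1.62 and 1.52 FPKM at P0 and at 2.99, 5.84 and 4.96 FPKM at P4. The P4 libraries lay above all P0 libraries, with a log2 change of 1.05 (95% interval 0.47 to 1.63, adjusted p = 0.985). The change was 0.48 for Tcap (95% interval -0.12 to 1.09) and 0.54 for Csrp3 (95% interval -0.05 to 1.12). The P4 libraries of Tcap and Csrp3 also lay above all their P0 libraries, and those of Myoz2, Nebl, Lmod2, Xirp1 and Des overlapped. The share of all gene models that separated in this way was not counted, so the separation is a description only. Erythroid markers summed to 12486, 12043 and 566 FPKM at P0, where replicate 3 stood apart, and to 220 to 974 at P4; 0 of 4 were called and 3 of 4 had an unadjusted p under 0.05. P4 libraries varied in their atrial markers, whose sum ran from 77.6 to 1187 FPKM, and the part of these markers in the members' values was not tested.

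The second question was how the members responded to resection. In ventricle at day 1 no member was called between resection and sham by limma, where 10.3% of gene models were called in either direction, and 1 member had an unadjusted p under 0.05, as had 28.6% of gene models. That member was Xirp2, at 4.93 and 11.8 FPKM after resection and 13.0 and 14.7 FPKM after sham. The resection libraries lay below sham, with a log2 change of -0.77 (95% interval -1.48 to -0.06, adjusted p = 0.147). Without day 1 resection replicate 2, Xirp2 was called lower, so this value turned on 1 library. The median change of the members was -0.16, and that of all gene models was also -0.16.

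In ventricle at day 7 no member was called by limma, where 0.154% of gene models were called in either direction, and 0 members had an unadjusted p under 0.05, against 10.9% of gene models. The changes ran from -0.29 for Tcap (95% interval -0.80 to 0.21) to 0.19 for Des (95% interval -0.24 to 0.61). Xirp2 was at 61.0 and 59.9 FPKM after resection and 69.7 and 58.1 FPKM after sham, which overlapped, at -0.07 (95% interval -0.78 to 0.64). The difference between the day 7 and day 1 effects was called for no member, where 5.93% of gene models were called in either direction, and 1 member, Lmod2, had an unadjusted p under 0.05, as had 25.9% of gene models. It was -0.44 for Lmod2 (95% interval -0.85 to -0.03, adjusted p = 0.166 in limma). Without day 1 resection replicate 2 the difference was called for Xirp2, which stood at 0.69 (95% interval -0.31 to 1.70) with all libraries.

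In isolated cardiomyocytes 7 days after resection all 8 estimates were above 0 and none was called by limma, where 1.08% of gene models were called in either direction. Estimates were also above 0 for 7 of 7 cardiomyocyte markers, 18 of 20 other Z-disc genes and 9 of 10 thin filament genes and paralogs. The same held for 6 of 7 desmin network and costamere genes and 4 of 4 M-band genes, against 0 of 5 endothelial markers. The members' median was 0.38 and that of all gene models 0.13, and 1 member had an unadjusted p under 0.05, as had 12.8% of gene models. Xirp2 was at 10.9, 7.16 and 16.6 FPKM after resection and 8.02, 6.46 and 5.43 FPKM after sham, a log2 change of 0.66 (95% interval 0.08 to 1.24, adjusted p = 0.321). Lmod2 was at 49.9, 26.8 and 83.1 FPKM after resection and 41.2, 30.3 and 23.8 FPKM after sham, a change of 0.62 (95% interval -0.12 to 1.36). Resection overlapped sham for each of the 8 members, and under quantile normalization Tcap and Myoz2 were both at -0.02.

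The 3 resection libraries kept 1 order for every member, with replicate 2 lowest and replicate 3 highest. Summed over the 8 members they held 1047, 660 and 1489 FPKM, beside cardiomyocyte marker sums of 10357, 5959 and 15340 FPKM. Atrial markers were called higher in 4 of 4 and lung markers in 5 of 5, and fibroblast sums were 962 to 2336 FPKM against 191 to 1188 in sham. The part of these cells in the members' estimates was not tested; without any 1 of the 6 libraries, no member was called. The difference between the isolated and the ventricle effect at day 7 was called for no member in limma, where 0.0735% of gene models were called in either direction, and 1 member, Lmod2, had an unadjusted p under 0.05 (0.90, 95% interval 0.03 to 1.77, adjusted p = 0.649), as had 7.46% of gene models.

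**Figure D3:**
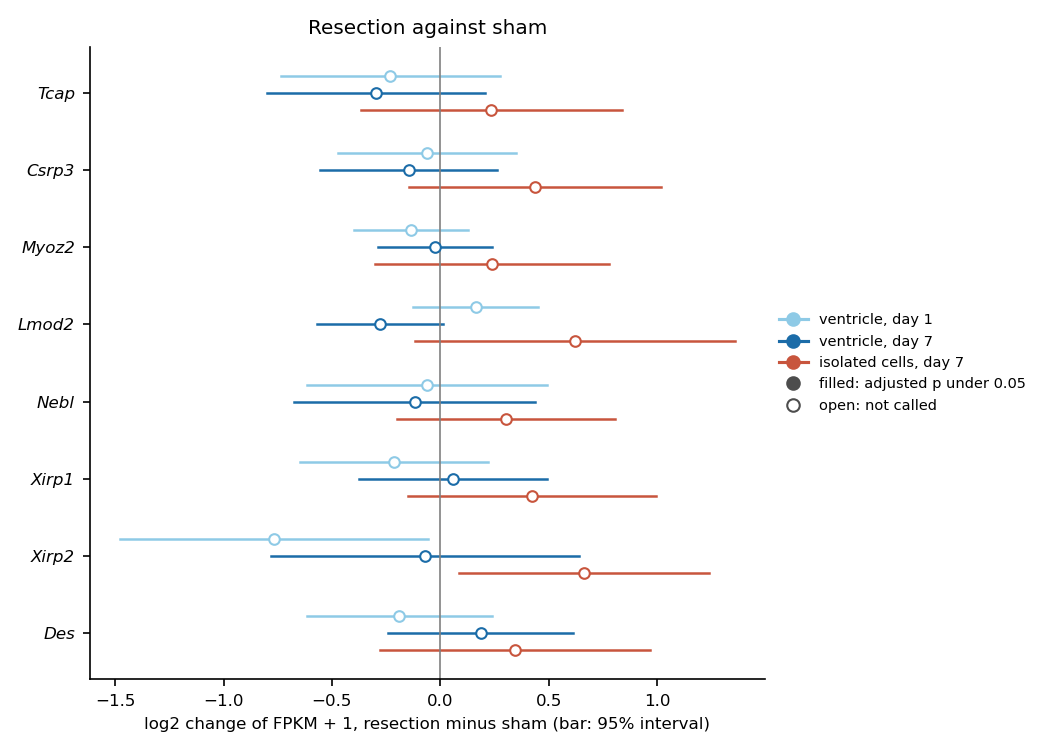
Change of each member after resection against sham on the log2(FPKM + 1) axis, for ventricle at day 1 and day 7 and isolated cardiomyocytes at day 7; bars are 95% intervals from limma. Every point is open, since no member was called; the isolated estimates all lie right of 0, up to 0.66 for Xirp2.

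Of the tested genes of the same 4 lists, 5 of 43 were called in ventricle at day 1 after resection, where 10.3% of all gene models were, and 1 of 41 in isolated cells at day 7, where 1.08% were. In isolated cells 1 of 20 tested Z-disc genes was called, Ankrd1, a stretch-responsive ankyrin repeat protein, which rose by 1.12 (adjusted p = 0.034 in limma) from 166 ± 19.9 to 373 ± 116 FPKM (SD, n = 3). Atrial and lung markers were called higher in the same comparison, and the part of those cells in the Ankrd1 change was not tested. In day 1 ventricle Actn1 fell by 1.12 (adjusted p = 0.00157), from 32.0 ± 1.07 to 14.2 ± 0.264 FPKM (SD, n = 2). Pdlim7 (-0.74, adjusted p = 0.0286) and Capzb (-0.55, adjusted p = 0.0341), a subunit of the barbed-end capping protein, fell there too in limma, but neither was called under median-of-ratios scaling or quantile normalization. The M-band gene Myom2 (0.81, adjusted p = 0.0296) and the intermediate filament gene Nes (0.52, adjusted p = 0.0281) rose. In the same comparison 4 of 6 macrophage markers were called lower. No gene of the 4 lists was called in ventricle at day 7.

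Operated ventricle libraries, sham and resection alike, stood apart from unoperated ones in some members. Tcap was at 31.0 to 61.2 FPKM in the 8 operated ventricle libraries and at 92.1 to 984 in the 8 unoperated ones. Des was at 138 to 210 FPKM in operated and 303 to 612 in unoperated ventricle, and Xirp1 at 12.2 to 20.3 against 33.3 to 55.8 FPKM. Nebl, Csrp3, Myoz2, Lmod2 and Xirp2 overlapped between the same libraries. The FPKM summed over all gene models also stood apart, at 519151 to 684130 in operated and 422576 to 502225 in unoperated ventricle. The share of all gene models without overlap between these libraries was not counted. The ratio of Tcap to Csrp3 within a library, which no scaling of the library can move, was 0.0578 to 0.0811 in operated ventricle and 0.211 to 1.301 in unoperated ventricle. In isolated cells it was 0.264 to 0.326 after resection and 0.282 to 0.364 after sham, beside 0.256 to 0.283 at P0. The labels name 2 ways of preparing libraries and 2 sequencers without saying which library had which, so operation, library preparation and sequencer cannot be told apart in these levels, which are given as a description with no test.

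**Figure D4:**
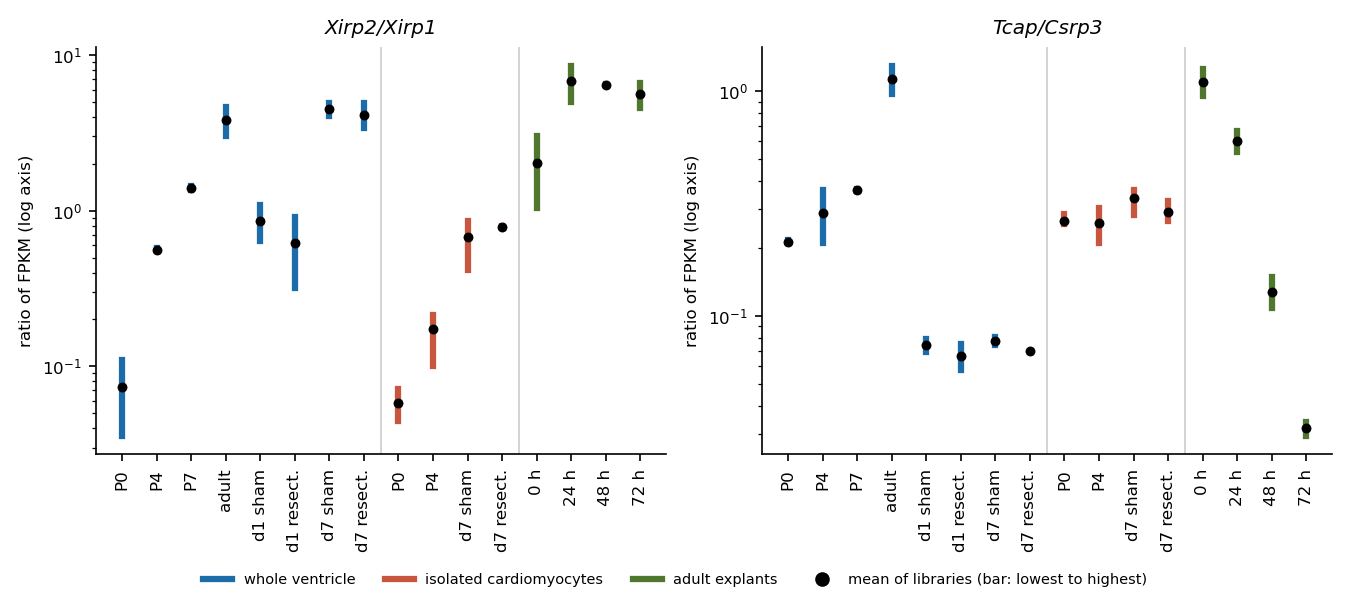
Ratio of Xirp2 to Xirp1 (left) and of Tcap to Csrp3 (right) in FPKM on log axes, by group; points are means of the libraries and bars run from the lowest to the highest library. Xirp2 passes Xirp1 between P4 (0.563) and P7 (1.40) in ventricle, and the Tcap ratio is lowest in explants at 72 h (0.0317).

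The pair of Xin repeat genes changed places by level in unoperated ventricle between P4 and P7. Xirp2 was at 0.0730 of the Xirp1 level in P0 ventricle, 0.563 at P4, 1.40 at P7 and 3.83 in adults. In isolated cells the ratio was 0.0583 at P0, 0.173 at P4, 0.678 in day 7 sham and 0.786 in day 7 resection. Xirp2 stayed below Xirp1 in every isolated library, with a highest ratio of 0.854. In the operated ventricle it was 0.863 at day 1 and 4.50 at day 7 after sham. Xirp1 was lower in operated than in unoperated ventricle, where operation, library preparation and sequencer cannot be told apart. In explants it was 2.03 at 0 h and 6.79 at 24 h.

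The third question was what happened to the members when adult cardiomyocytes were kept in culture. Against 0 h, Tcap was called lower and Xirp2 higher at each of 24, 48 and 72 h, and at 72 h Nebl was also lower and Des higher. At 24 h 1 member was called higher, where 15.4% of 12246 gene models were, and 1 lower, where 2.55% were. At 48 h 1 was called higher, where 35.0% were, and 1 lower, where 7.18% were. At 72 h 2 were called higher, where 46.8% were, and 2 lower, where 9.07% were. The median log2 change of all gene models was 0.37 at 24 h, 0.59 at 48 h and 0.76 at 72 h, and that of the members was -0.10, -0.30 and -0.58. The 3 times share the 0 h libraries, so their changes are not independent of each other.

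Tcap was at 1619 and 1134 FPKM at 0 h, 441 and 546 at 24 h, 117 and 100 at 48 h, and 36.5 and 17.9 at 72 h. No time overlapped another. Its log2 change was -1.46 (SE 0.35, adjusted p = 0.0321) at 24 h, -3.64 (adjusted p = 0.00113) at 48 h and -5.67 (adjusted p = 0.00018) at 72 h, from limma. The mean at 0 h was 50.6 times that at 72 h, and Tcap went from the first place among the members by mean level to the eighth. Its libraries overlapped those of Csrp3 at 0 h and those of Nebl at 72 h.

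Xirp2 was at 101 and 194 FPKM at 0 h, 387 and 658 at 24 h, 544 and 652 at 48 h, and 673 and 602 at 72 h. All later libraries lay above both 0 h libraries, and the later times overlapped. The log2 change was 1.84 (SE 0.37, adjusted p = 0.0206) at 24 h, 2.08 (adjusted p = 0.00568) at 48 h and 2.17 (adjusted p = 0.00288) at 72 h, from limma. Under median-of-ratios scaling, which takes out the shift of all genes, it was 1.35, 1.38 and 1.31, with adjusted p-values of 0.0841, 0.0525 and 0.0521.

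Des was at 576 and 464 FPKM at 0 h and 1438 and 894 at 72 h, a log2 change of 1.13 (SE 0.28, adjusted p = 0.012 in limma) that was 0.26 (adjusted p = 0.45) under median-of-ratios scaling. The call was also lost without 0 h replicate 2 (0.98, adjusted p = 0.0595) and without 72 h replicate 1 (0.79, adjusted p = 0.0591), and without a filter on low values (adjusted p = 0.056). Nebl was at 125 and 104 FPKM at 0 h, 107 and 179 at 24 h, 75.8 and 111 at 48 h, and 24.9 and 46.9 at 72 h. Only its 72 h libraries lay below both 0 h libraries, with a log2 change of -1.71 (SE 0.38, adjusted p = 0.00816).

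The other 4 members were not called at any time in this fit. With the same scaling at 72 h, Myoz2 was called lower in a single fit of all libraries. With the replicate block, Myoz2 and Lmod2 were called lower there. At 72 h Csrp3 was at 1076 and 610 FPKM against 1294 and 1196 at 0 h, a change of -0.62 (95% interval -1.39 to 0.15). Myoz2 stood at -0.65 and Lmod2 at -0.55 there, and their libraries lay below those at 0 h. Xirp1 was at 147 and 90.3 FPKM against 96.4 and 64.5 at 0 h, which overlapped, a change of 0.54 that was -0.32 under median-of-ratios scaling. Under that scaling the split of called members at 72 h was 0 higher and 5 lower (Tcap, Csrp3, Myoz2, Nebl and Lmod2), in place of 2 and 2, and at 48 h 0 higher and 3 lower (Tcap, Csrp3 and Myoz2). Among all gene models it moved the share of higher calls from 85.8% to 41.6% at 24 h, from 83.0% to 42.2% at 48 h and from 83.8% to 46.3% at 72 h. The 24 h calls were the least stable: both were lost without 0 h replicate 1 and without either 24 h library, and the Tcap call was also lost without 0 h replicate 2. Without a filter on low values both were lost (adjusted p = 0.0953 for Tcap and 0.0693 for Xirp2), and the Tcap call was lost under quantile normalization (adjusted p = 0.0921).

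**Figure D5:**
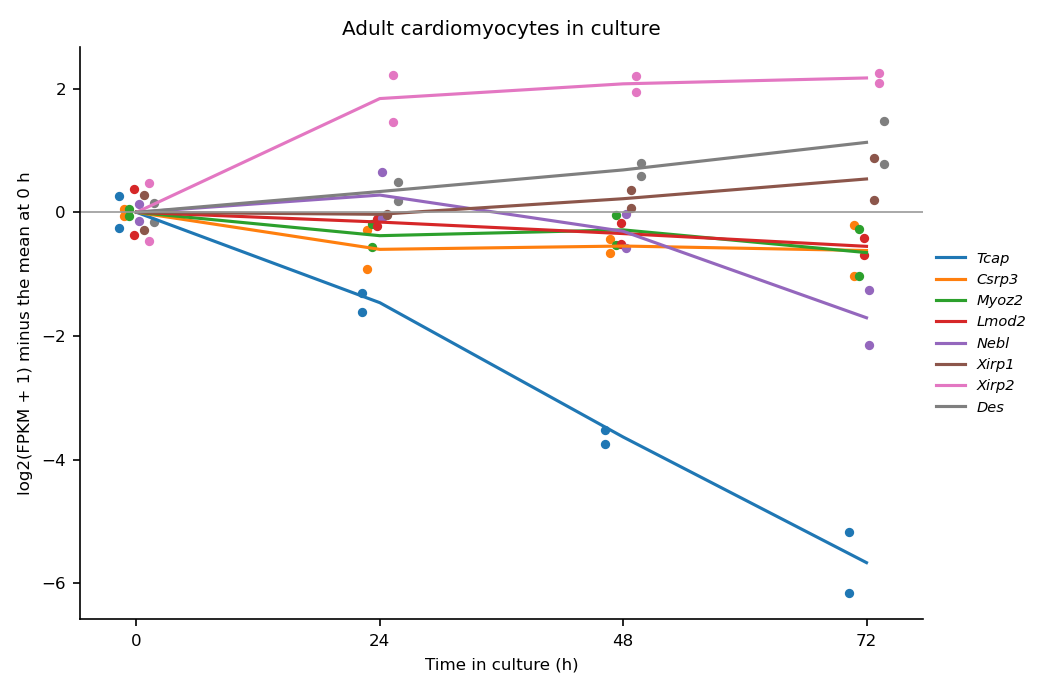
Change of each member in cultured adult cardiomyocytes, as log2(FPKM + 1) minus the 0 h mean, against hours in culture; lines join group means and points are the libraries, shifted sideways for clarity. Tcap descends to -5.67 and Xirp2 climbs to 2.17 at 72 h, and the other members lie between.

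Markers of the cultured cells moved as well. The sum of 7 cardiomyocyte markers was 22913 to 26509 FPKM at 0 h and 3845 to 4046 at 72 h. There 6 of 7 were called lower, beside 9.07% of all gene models. Endothelial markers summed to 22.3 to 40.3 FPKM at 0 h and 6.55 to 17.6 at 72 h, and 3 of 5 were called lower. Smooth muscle markers summed to 79.5 to 133 FPKM at 0 h and 12.5 to 13.9 at 72 h, fibroblast markers to 11.2 to 17.8 and 20.4 to 23.0, and macrophage markers to 1.76 to 2.38 and 83.5 to 137. The part of these changes in the members' values was not tested. The summed level of the members themselves was 4224 to 4724 FPKM at 0 h and 2840 to 4121 at 72 h.

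Genes of the same structures moved in both directions in culture. Of 20 tested Z-disc genes outside the members, 6 rose and 8 fell by 72 h, where 46.8% of gene models were called higher and 9.07% lower. Fhl2, a LIM protein partner of titin, fell by 4.43 (adjusted p = 0.00072 in limma), and its 0 h libraries differed widely, at 653 ± 385 FPKM (SD, n = 2). Myot (-3.42, adjusted p = 0.000914), Cmya5 (-3.42, adjusted p = 0.000548) and Synpo2 (-3.34, adjusted p = 0.00018), an actin-binding protein of the Z-disc, fell too, from limma. Flnc, the filamin of muscle Z-discs and a Xin partner, was called higher at 24 h (1.37, adjusted p = 0.0234) and at 48 h (2.23, adjusted p = 0.00237) in limma, the first of which was lost under median-of-ratios scaling (adjusted p = 0.0782).

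Of 10 thin filament genes and paralogs, 3 rose and 5 fell by 72 h. The shares of all gene models beside this and the next 2 lists are the same 46.8% higher and 9.07% lower. Actc1, cardiac actin, fell by 5.57 (adjusted p = 4.75e-05 in limma), from 5909 ± 870 to 124 ± 25.9 FPKM (SD, n = 2). Tpm1, tropomyosin, fell by 1.90 (adjusted p = 0.000702), and Lmod3, a relative of Lmod2, fell by 1.75 (adjusted p = 0.0055). Of 7 desmin network and costamere genes 3 rose and 2 fell. Itgb1bp2, melusin, an integrin-binding protein of the costamere, fell by 5.59 (adjusted p = 0.000182), from 128 ± 10.9 to 1.85 ± 1.38 FPKM. Vcl (0.90, adjusted p = 0.00817) and Nes (1.11, adjusted p = 0.00667) rose in this fit, and neither was called under median-of-ratios scaling or quantile normalization. Of 4 M-band genes, 3 fell and none was called higher. Under median-of-ratios scaling the splits were 3 higher and 9 lower for the Z-disc, 0 and 6 for the thin filament, 0 and 3 for the desmin network and costamere, and 0 and 4 for the M-band.

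Likeness between members was measured as Pearson's r of log2(FPKM + 1) over the 16 group means, which share libraries and scaling, and is a description. Xirp1 and Des were most alike among the pairs of members (r = 0.96), followed by Myoz2 and Lmod2 (0.94) and by Csrp3 and Lmod2 (0.91). Both Xirp1 and Des were lower in operated than in unoperated ventricle, where operation, library preparation and sequencer cannot be told apart. The part of that difference in their values of r was not tested. Nebl had low values with every other member, from 0.25 with Myoz2 to -0.39 with Des. Tcap had no r above 0.43 with another member.

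Among 7047 gene models with a symbol and a mean of at least 5 FPKM, the pair most like each member was taken. For Des these were Flot1 (r = 0.99) and Gtpbp5 (0.99), and for Xirp1 Fam173a (0.97) and Polr2f (0.97). For Xirp2 they were Arpc5l (0.97), a subunit of the actin-nucleating complex, and Sqrdl (0.96). For Nebl they were Tnnc1 (0.96), cardiac troponin C, and Acadl (0.95). S100a1, a calcium-binding protein of heart muscle, was in the pair of both Csrp3 (0.94) and Lmod2 (0.96), beside Sord (0.93) and Rab28 (0.97). Myoz2 had BC013529 (0.96) and Eif4e3 (0.95), and Tcap had the lowest values, with Doc2g (0.91) and Gpt (0.90).

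Where the members lie, on build mm9 as the deposited table gives it, bears on how cleanly their reads could be counted. Tcap is a short gene of 1144 bases (chr11:98245124-98246267), and Lmod2 (chr6:24547770-24555414), Csrp3 (chr7:56085767-56103400) and Xirp1 (chr9:119922872-119932716) overlap no other gene model. Xirp2 (chr2:67072586-67364671) spans 292086 bases and overlaps 4 models, whose highest mean was 0.00678 FPKM. Nebl (chr2:17265535-17653091) overlaps Gm13324, at a mean of 0.0727 FPKM, and Des (chr1:75356903-75365154) overlaps Gm15179, at 0.425 FPKM. Myoz2 (chr3:122709123-122737908) overlaps AC121540.1, which is listed at 0.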

How the data were processed

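The authors sequenced total RNA extracted with Trizol. The deposited values are FPKM, which the authors made with Bowtie 0.12.7, TopHat 1.3.2 and Cufflinks 1.2.1 on mouse build mm9, with Cuffdiff also named, per the submitters' processing notes; the annotation is not given in the sources used here. FPKM holds no counts, so no count model was used and depth is unknown.

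Values were taken as log2(FPKM + 1), where the pseudocount of 1 understates changes of low genes. A model of group means with an expression-dependent variance prior was fitted in limma 3.58.1 (R 4.3.3) separately for 12 isolated, 16 ventricle and 8 explant libraries, and over all 36 libraries for the difference between preparations. Gene models with at least 1 FPKM in at least 2 libraries of a fit entered the tests, which were two-sided. Calls needed a Benjamini-Hochberg adjusted p under 0.05 over all tested gene models. The fit was tested on simulated data.

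Named genes were the members, at most 4 called genes of each related list per comparison by size of change, of which the text gives a selection, and the 2 models most like each member. Members and lists were chosen with earlier results of these data known. Of 51 related genes, 46 had a row; Palld, Ttn, Murc, Vim and Mybpc3 were not analysed here. Motif searches and figures used Python 3.11.15, pandas 2.3.3, NumPy 2.4.6 and Matplotlib 3.10.9. Alternatives were quantile normalization, median-of-ratios scaling, another pseudocount, no filter on low values, a replicate block, a single fit, zeros treated as missing and leaving out each library.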

Additional observations from a re-analysis of the deposited data

How the results depend on the processing

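The 19 called changes of members kept their direction under all alternatives run. All 19 stayed called with a pseudocount of 0.1, with the replicate block and with zeros treated as missing; 17 did under quantile normalization, 15 under median-of-ratios scaling, 15 in a single fit of all libraries and 14 without a filter. Of 76 repeats with 1 library left out, 61 kept the call. For P7 against P0, the single fit called 1 member higher in place of 4. In explants, median-of-ratios scaling called 0 members higher at 24, 48 and 72 h and 3 and 5 lower at 48 and 72 h; quantile normalization called 0 lower at 24 h and 2 higher at 48 h; without a filter 0 were called in either direction at 24 h and 1 higher at 72 h. The cause of these differences was not tested.

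With 1 library left out, members called at 24 h ranged from 0 to 1 higher, with 0 lower in each of the 4 repeats, at 72 h from 1 to 2 higher and from 2 to 4 lower, in adult ventricle from 0 to 1 lower, at day 1 after resection from 0 to 1 lower, and for the difference between day 7 and day 1 from 0 to 1 higher. A group left with 1 library is assumed to vary like the others. The sum of several rows of a symbol was not run, since each member has 1 row.

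The replicate numbers were not taken as pairing. Same-numbered libraries deviated together in explants (r = 0.385 to 0.552, with only 2 pairs) but not in ventricle (-0.135 to 0.02) nor in every pair of isolated cells (-0.0872 to 0.421), where 2 of 3 pairs correlated best with their own number in each comparison. With the replicate block, 1 member was called lower in adult ventricle (Xirp1), 2 higher at 48 h (Xirp2 and Des) and 4 lower at 72 h (Tcap, Myoz2, Nebl and Lmod2); the other counts of called members did not move by over 1.5 times. FPKM gives no depth, so low levels such as Xirp2 at P0 carry an unknown counting error.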
